A study of Zea mays with 6 samples.

Results

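Vp1, Lec1, Wri1 and DGAT1-2 are maize genes known for seed maturation and kernel oil, and 4 gene IDs listed under these names were followed here. The IDs were Zm00001d001838 for Vp1, Zm00001d017898 for Lec1, Zm00001d005016 for Wri1 and Zm00001d036982 for DGAT1-2. All 4 were among the 33051 gene IDs of the deposited tables, and 3 of them averaged 1 FPKM or more. FPKM is a fragment count divided by the length of the gene and by the size of its library. The names came with the list and not from the files. The RefSeq table of maize genes (Zm-B73-REFERENCE-NAM-5.0) held entries named vp1, lec1 and DGAT1-2, but none of its entries carried an ID of this kind (0 of 32852), so the pairing of name and ID could not be checked. For Zm00001d001838 the pairing with Vp1 is doubtful, and that gene is called by its ID below.

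The samples were whole kernels of maize inbred KN5585, taken 10 days after pollination for messenger RNA sequencing. Of the 6 libraries, 3 are labelled ZmSUS1 transgenic and 3 are labelled as the non-transgenic control of the same line. The replicates are described as biological. The series text describes the transgenic plants as a single selected strain meant to overexpress SUS1, a sucrose synthase. The transgene promoter and the number of plants or kernels per library are not stated there.

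Seed oil is triacylglycerol, which the embryo stores in oil bodies and the endosperm holds in much smaller amounts. In the seed maturation programme, Lec1 encodes a subunit of the NF-Y transcription factor that acts early in the embryo, and Vp1 encodes a B3-domain transcription factor of abscisic acid responses in embryo and aleurone. Downstream, the AP2-type factor Wri1 turns on genes of glycolysis and fatty acid synthesis. The enzyme DGAT1-2, an acyl-CoA:diacylglycerol acyltransferase, joins the last fatty acid to make triacylglycerol, and its gene underlies a known oil locus of maize. At 10 days after pollination the endosperm makes up most of a maize kernel and the embryo is small.

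The targeted gene itself went against its label. SUS1, which the series text gives as Zm00001d047253, had 155, 149 and 160 FPKM in the libraries labelled transgenic, against 214, 210 and 221 FPKM in those labelled control (limma, log2 fold change -0.47, SE 0.050, adjusted p = 0.000759). The groups are therefore named by their labels, and every direction below holds only as far as the labels do. The 20 most abundant genes took 62.9 ± 0.727% of the summed FPKM in libraries labelled transgenic and 58.1 ± 1.21% in libraries labelled control (SD, n = 3 each). The median gene of the 20514 tested had a log2 fold change of -0.13. Differences are therefore also given relative to that median. Scaled to the FPKM outside those 20 genes, the log2 fold change was -0.39 for DGAT1-2, -0.13 for Wri1 and 0.55 for Zm00001d001838.

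DGAT1-2 fell in the libraries labelled transgenic, and Wri1 fell on the deposited scale. Zm00001d001838 was higher in all 3 libraries labelled transgenic but missed the threshold, and Lec1 was at or near 0 throughout. On the deposited scale 2 of the 3 tested members had a limma adjusted p under 0.05, both lower, against 19.0% of all tested genes in either direction, 16.2% lower and 2.88% higher. Among genes with a mean of 10 to 100 FPKM, where Wri1 and DGAT1-2 lie, 22.5% passed as lower. Their values did not overlap between the groups, nor did those of Zm00001d001838, so that 2 members lay apart below and 1 above. Values lay apart in 38.9% of all tested genes, 31.6% with the libraries labelled transgenic lower and 7.36% with them higher.

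With median-ratio rescaling, which divides each library by its median ratio to the geometric mean of the 6 libraries and so centres the median gene, the 2 members past the threshold were DGAT1-2, lower, and Zm00001d001838, higher. On that scale 13.6% of all tested genes passed, 7.41% lower and 6.24% higher.

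**Figure D1:**
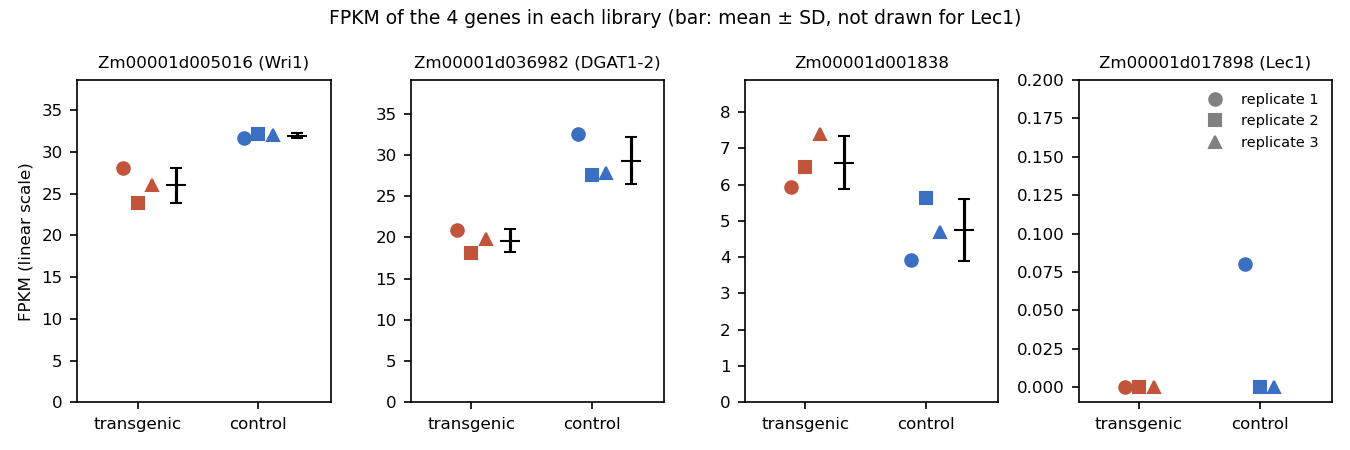
FPKM (linear axis, a separate scale for each gene) of the 4 genes in each library. Points are libraries, shaped by replicate number, in libraries labelled transgenic (left) and control (right), and bars are the mean ± SD of 3 libraries. The groups are apart for Wri1, DGAT1-2 and Zm00001d001838, and Lec1 is above 0 in control 1 alone.

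Lec1, the NF-Y subunit of the early embryo, was listed at 0 FPKM in all 3 libraries labelled transgenic, against 0.08, 0 and 0 FPKM in controls 1, 2 and 3. The single value above 0 lay in 1 control library, and the groups overlapped at 0. Of the 33051 listed genes, 2287 (6.92%) were likewise above 0 in 1 library of 6. Lec1 lay under the filter of the test, a mean of 1 FPKM. Without that filter its adjusted p was 0.703 (limma), and no fold change is given against a group at 0. Total fragment numbers are not given in the files, so the lowest level that could have been seen is unknown. A transcript of the small embryo is diluted in whole-kernel RNA, and in such samples fewer cells of a type and less RNA per cell cannot be told apart.

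Zm00001d001838, listed as Vp1, had 5.93, 6.49 and 7.40 FPKM in transgenic 1, 2 and 3, against 3.93, 5.64 and 4.68 FPKM in controls 1, 2 and 3. Every library labelled transgenic lay above every library labelled control, but the nearest values, transgenic 1 and control 2, were only 1.05-fold apart. The means were 6.61 ± 0.742 FPKM in libraries labelled transgenic and 4.75 ± 0.857 FPKM in those labelled control (SD, n = 3 each), a difference of 39.1%. On the log2(FPKM + 1) scale the fold change was 0.41 with a 95% interval of 0.10 to 0.71, and it missed the threshold (limma, adjusted p = 0.0653). Relative to the median gene it was 0.54, and 3.26% of the tested genes had a higher fold change. The call turned on the scaling and on which libraries were kept. With median-ratio rescaling the log2 fold change was 0.53 and passed (limma, adjusted p = 0.0356). It also passed with quantile normalization (limma, adjusted p = 0.0333), after scaling to the FPKM outside the 20 most abundant genes (0.0367), with the replicate number as a block (0.0478) and without control 2 (0.0475). Without any other single library it missed, with adjusted p up to 0.178 (limma, without control 1). The 95% interval was -0.0037 to 0.61 without control 1 and -0.0064 to 0.68 without transgenic 3.

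Wri1, the regulator of fatty acid synthesis, had 28.06, 23.84 and 26.01 FPKM in transgenic 1, 2 and 3, against 31.62, 32.16 and 32.04 FPKM in controls 1, 2 and 3. The libraries labelled transgenic had a coefficient of variation of 8.13% and all lay below the controls, whose coefficient of variation was 0.888%. The means were 25.97 ± 2.11 FPKM in libraries labelled transgenic and 31.94 ± 0.284 FPKM in those labelled control (SD, n = 3 each), so the transgenic mean was 18.7% lower. The log2 fold change was -0.29 with a 95% interval of -0.46 to -0.13 (limma, adjusted p = 0.0267). Relative to the median gene the log2 fold change was -0.17, and 24.0% of the tested genes had a lower one. With median-ratio rescaling Wri1 averaged 27.2 ± 2.22 in libraries labelled transgenic and 30.2 ± 0.708 in those labelled control (SD, n = 3 each), and the log2 fold change of -0.15 missed the threshold (limma, adjusted p = 0.225). The call held without transgenic 1 (limma, adjusted p = 0.0237) and was lost without transgenic 2 (0.0840), transgenic 3 (0.0587), control 1 (0.0711), control 2 (0.0825) or control 3 (0.0594).

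DGAT1-2, the enzyme of the last step of oil synthesis, showed the largest fall of the members. It had 20.86, 18.14 and 19.84 FPKM in transgenic 1, 2 and 3, against 32.58, 27.55 and 27.82 FPKM in controls 1, 2 and 3. All libraries labelled transgenic were low and control 1 was the highest of all. The means were 19.6 ± 1.37 FPKM in libraries labelled transgenic and 29.3 ± 2.83 FPKM in those labelled control (SD, n = 3 each), so the transgenic mean was 33.1% lower. The log2 fold change was -0.55 with a 95% interval of -0.76 to -0.35 (limma, adjusted p = 0.00444), and 6.80% of the tested genes had a lower one. Relative to the median gene it was -0.43. The fall passed the threshold in each of the 19 alternatives run, with log2 fold changes from -0.60 to -0.39 and adjusted p from 0.00247 to 0.0203 (limma). The exact permutation test of 3 against 3 libraries gave p = 0.1 for DGAT1-2, Wri1 and Zm00001d001838 alike, which is the smallest it can give.

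**Figure D2:**
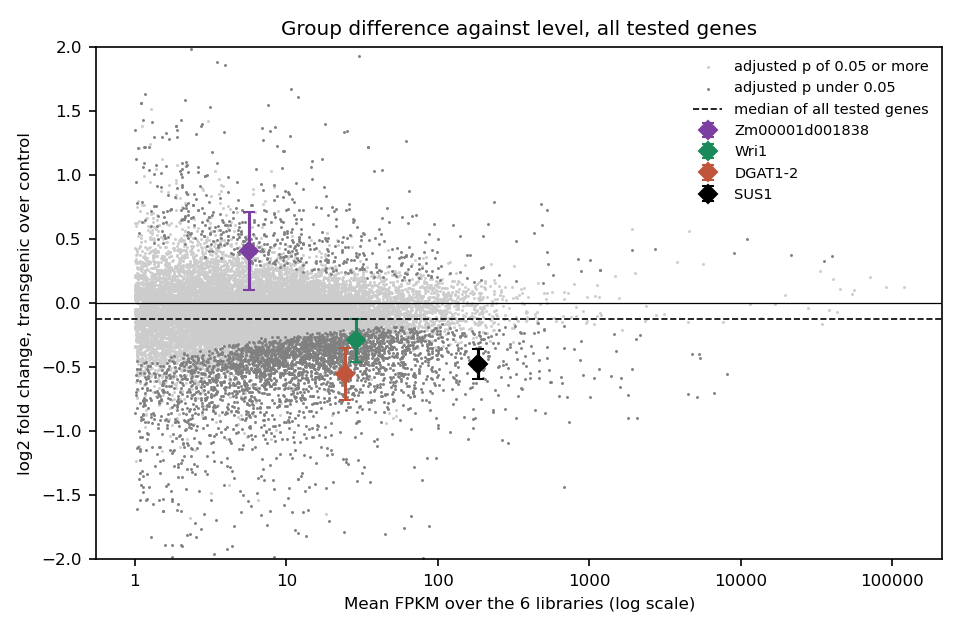
log2 fold change of libraries labelled transgenic over control (vertical axis) against mean FPKM (log axis) for the 20514 tested genes, with the 95% limma interval for the 3 tested members and SUS1. DGAT1-2 and SUS1 lie well below the median of all genes (dashed, -0.13), Wri1 at -0.29 lies nearer to it and Zm00001d001838 lies above, and 47 genes beyond 2 in size fall outside the axis.

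**Figure D3:**
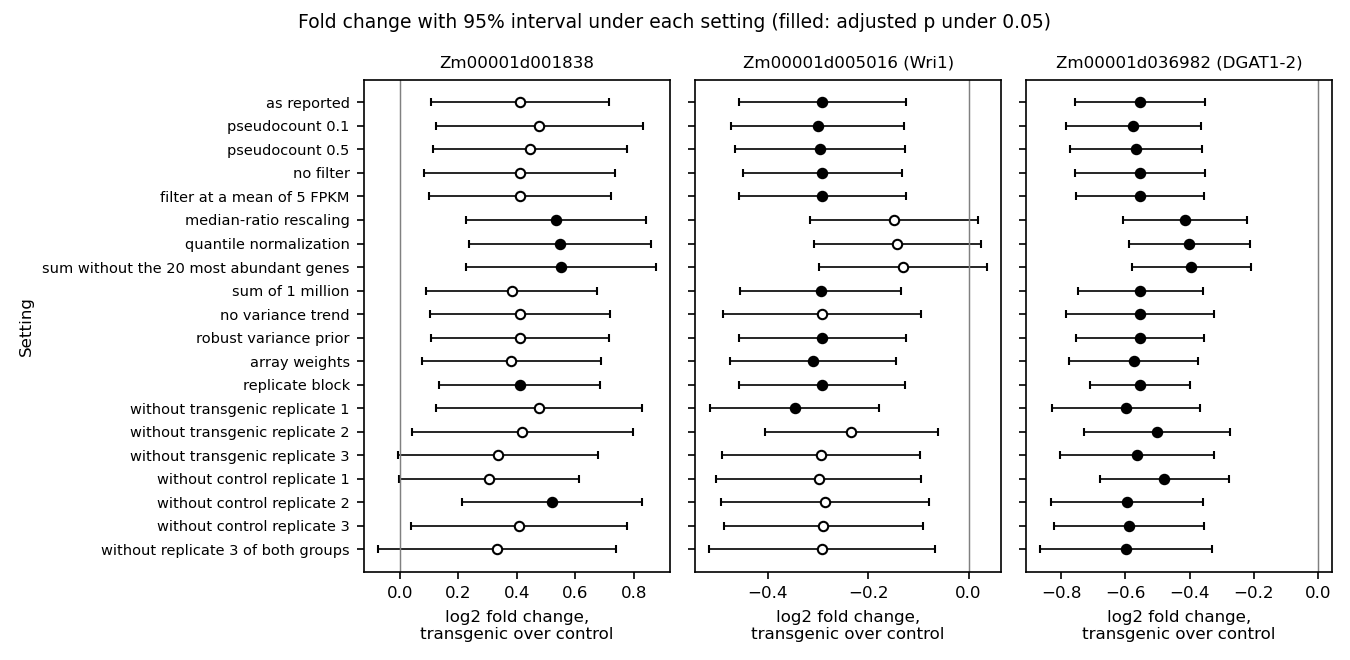
log2 fold change of libraries labelled transgenic over control with its 95% limma interval (horizontal axis) for the 3 tested members under each processing setting (rows). Filled points have an adjusted p under 0.05: all of them for DGAT1-2, and 5 alternatives but not the reported fit for Zm00001d001838. For Wri1 they are the reported fit and 9 of the 19 alternatives, with none of the 3 rescalings that centre the median gene.

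Since FPKM is scaled to gene length, the levels of the 4 genes can be set in order. In all 3 libraries labelled transgenic the order was Wri1, DGAT1-2, Zm00001d001838 and Lec1. The same order held in controls 2 and 3, whereas in control 1 DGAT1-2 stood above Wri1. Wri1 and DGAT1-2 were apart in the libraries labelled transgenic (23.84 to 28.06 against 18.14 to 20.86 FPKM) and overlapped in those labelled control (31.62 to 32.16 against 27.55 to 32.58 FPKM). By mean FPKM over the 6 libraries, Wri1 stood above 84.8%, DGAT1-2 above 81.9% and Zm00001d001838 above 41.6% of the tested genes. Among all listed genes of a library, Wri1 ranked 3048 to 3611 in libraries labelled transgenic and 2853 to 3045 in those labelled control. DGAT1-2 ranked 4169 to 4739 in libraries labelled transgenic and 2945 to 3476 in those labelled control. Zm00001d001838 ranked 9915 to 11330 in libraries labelled transgenic and 12287 to 14476 in those labelled control. The ranks of each of the 3 genes thus did not overlap between the groups, though for Wri1 only barely (3048 against 3045). The share of all genes whose ranks lay apart was not computed.

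A ratio of 2 genes within a library does not depend on how that library was scaled. Wri1 over DGAT1-2 was 1.35, 1.31 and 1.31 in transgenic 1, 2 and 3, against 0.971, 1.17 and 1.15 in controls 1, 2 and 3. The ratio was thus nearly constant at 1.32 ± 0.0189 in libraries labelled transgenic and lower, at 1.10 ± 0.109, in those labelled control (SD, n = 3 each). DGAT1-2 over Zm00001d001838 was 3.52, 2.80 and 2.68 in transgenic 1, 2 and 3, against 8.29, 4.88 and 5.94 in controls 1, 2 and 3. Control 1, with the most DGAT1-2 and the least Zm00001d001838, stood highest. Wri1 over Zm00001d001838 was 4.73, 3.67 and 3.51 in transgenic 1, 2 and 3, against 8.05, 5.70 and 6.85 in controls 1, 2 and 3. In each of these 3 pairs the groups did not overlap, and the share of all gene pairs that lay apart was not computed. For the pairs with Zm00001d001838 the separation was fixed by the separate values, since the numerator was wholly lower and the denominator wholly higher. These pairs thus add no evidence beyond the single genes, and the 3 ratios are not independent. Each pair had an exact permutation p of 0.1, the smallest that 3 against 3 libraries can give. It was also 0.1 after Benjamini-Hochberg adjustment over the 3 pairs. The other 3 pairs hold Lec1, which is listed at 0, and were not computed.

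**Figure D4:**
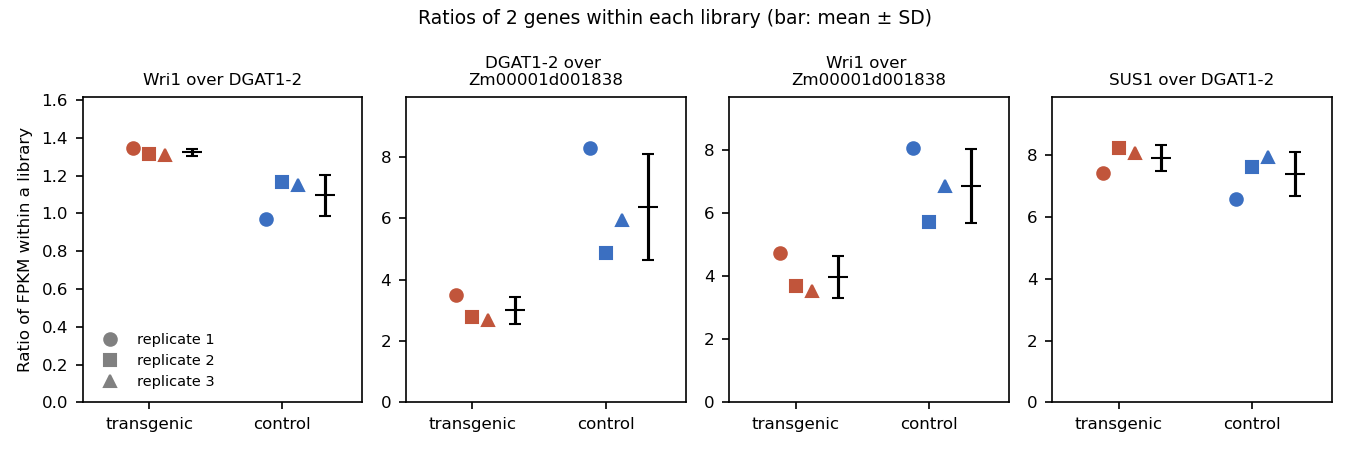
Ratio of the FPKM of 2 genes within each library (vertical axis, linear, from 0), in libraries labelled transgenic (left) and control (right). Points are libraries and bars the mean ± SD of 3. Groups are apart in the first 3 panels, with Wri1 over DGAT1-2 at 1.32 in libraries labelled transgenic and 1.10 in those labelled control, and overlap for SUS1 over DGAT1-2.

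Set against SUS1, which was chosen for this after the values had been seen, DGAT1-2 showed no separation. SUS1 over DGAT1-2 was 7.43, 8.22 and 8.06 in transgenic 1, 2 and 3, against 6.58, 7.63 and 7.95 in controls 1, 2 and 3. These values overlapped (exact permutation p = 0.4, and 0.4 adjusted over the 3 pairs with SUS1). SUS1 over Wri1 was 5.53, 6.26 and 6.15 in transgenic 1, 2 and 3, against 6.78, 6.53 and 6.90 in controls 1, 2 and 3. All libraries labelled transgenic were lower here (exact permutation p = 0.1, adjusted 0.15). SUS1 over Zm00001d001838 averaged 23.6 ± 2.33 in libraries labelled transgenic and 46.4 ± 8.67 in those labelled control (SD, n = 3 each; exact permutation p = 0.1, adjusted 0.15). That separation too was fixed by the separate values, with SUS1 wholly lower and Zm00001d001838 wholly higher.

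Across all tested genes, the deviations of replicate 3 from its group mean correlated between the groups at 0.33, and with those of replicates 1 and 2 of the other group at -0.20 to -0.18. The members were therefore also compared within groups. The ratio of replicate 3 to the mean of the other replicates was 1.00 in libraries labelled transgenic and 1.00 in those labelled control for Wri1. For DGAT1-2 it was 1.02 in libraries labelled transgenic and 0.925 in those labelled control. For Zm00001d001838 it was 1.19 in libraries labelled transgenic and 0.978 in those labelled control, so the members did not share a shift of replicate 3 across the groups. Without replicate 3 of both groups the log2 fold change was -0.60 for DGAT1-2 (limma, adjusted p = 0.0192), -0.29 for Wri1 (0.0895) and 0.33 for Zm00001d001838 (0.233).

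For each member, the gene with the most similar pattern was sought among the other genes averaging 1 FPKM or more. It was the one with the smallest root mean square difference of log2(FPKM + 1) over the 6 libraries. Each gene was taken as a deviation from its own mean. For DGAT1-2 this was Zm00001d031944, at a difference of 0.037, with 7.33, 6.55 and 6.71 FPKM in transgenic 1, 2 and 3 and 11.27, 10.00 and 9.79 FPKM in controls 1, 2 and 3. Being chosen for its likeness to a member, each such gene is described without a test. For Zm00001d001838 it was Zm00001d009738, at 0.055, with 5.36, 5.84 and 6.05 FPKM in transgenic 1, 2 and 3 and 3.64, 4.94 and 3.92 FPKM in controls 1, 2 and 3. For Wri1 it was Zm00001d012085, at 0.022, with means of 5.83 ± 0.469 FPKM in libraries labelled transgenic and 7.31 ± 0.207 FPKM in those labelled control (SD, n = 3 each). Lec1, at 0 in 5 libraries, lay under 1 FPKM, and 14 genes with values identical to its own were outside the search. Within the search its nearest gene was one that hardly varied, Zm00001d031570, at 0.011. The number of searched genes within 0.1 differed widely: 15 for Zm00001d001838, 319 for DGAT1-2, 1841 for Wri1 and 3892 for Lec1. Such counts also depend on how much a member itself varied. The SD of log2(FPKM + 1) over the 6 libraries was 0.045 for Lec1, 0.175 for Wri1, 0.277 for Zm00001d001838 and 0.321 for DGAT1-2. The counts therefore do not measure how distinctive a pattern is. The files do not pair these IDs with names.

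**Figure D5:**
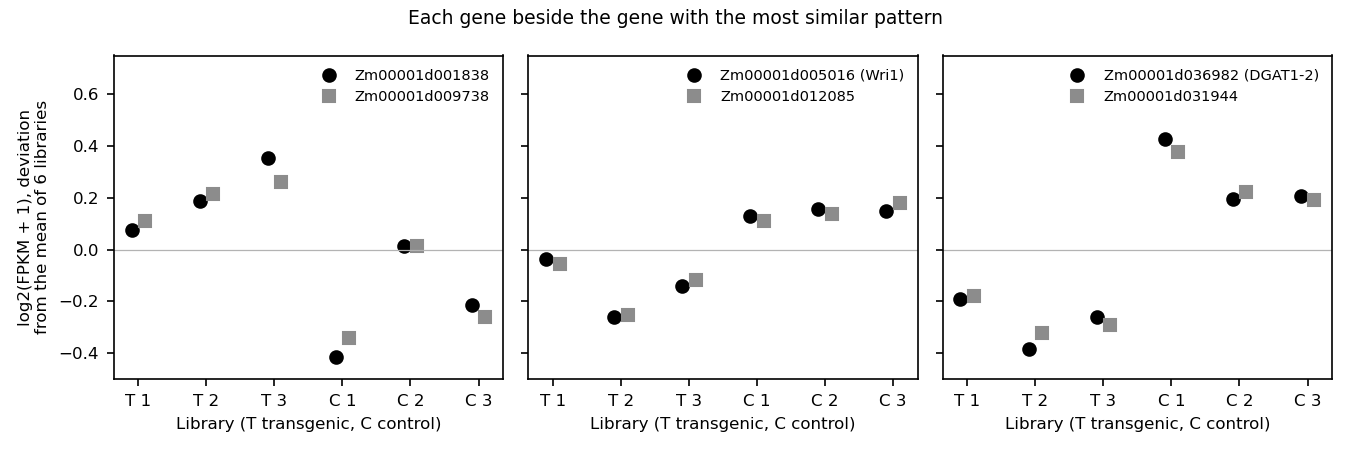
Deviation of log2(FPKM + 1) from the mean of the 6 libraries (vertical axis) for each tested member (black) and the gene with the most similar pattern (grey), by library. The black and grey points lie close together in each library, with differences of 0.055, 0.022 and 0.037 from left to right.

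Other genes of embryo maturation and oil synthesis could not be set beside these. Of a list of 54 symbols (among them oleosins, globulins, fatty acid desaturases and other acyltransferases), 17 were in the RefSeq table and 0 could be joined to an ID of the files. Of 55 symbols of markers for embryo, endosperm, aleurone, transfer layer and pericarp, 42 were in that table and 0 could be joined. The labelled tissue was therefore not checked against markers, and how much of each library came from the embryo was not measured.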

How the data were processed

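Messenger RNA of 6 whole-kernel samples was sequenced. The titles of the samples gave group and replicate. The authors deposited FPKM values, per the file headers, with 2 decimals and 1 table per library. The submitters' processing notes list DESeq2, with neither version nor role, and the aligner, counter, genome build and annotation were not given in the sources used here. Summed FPKM was 1359751 to 1378937 per library. Total fragments are unknown, so no counting interval was computed.

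From these values, log2(FPKM + 1) was compared for the 20514 genes averaging 1 FPKM or more, using limma 3.58.1 in R 4.3.3 (moderated variance with a mean trend, 6 libraries, no covariate, 2-sided, Benjamini-Hochberg over all tested genes, threshold 0.05). Fold changes on this scale understate changes of low genes. The model was tested on simulated data. Single values and ratios were compared by exact permutation tests (2-sided), in Python 3.11.15 with scipy 1.17.1.

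The members, lists and tests were chosen with earlier results of these data known. Named genes were the 4 members, SUS1 and, for each member, the gene of the most similar pattern. Across genes, deviations from the group mean correlated between libraries of the same number at 0.13, 0.12 and 0.33. The deviations of 3 libraries sum to 0, so a link of replicate 3 alone also raises the correlations among replicates 1 and 2. The reported tests are unpaired, and the pairing by number was fitted as a replicate block in an alternative. The pairing comes from the values, not a label. Transgenic 1 also correlated with control 2 at 0.105, and transgenic 2 with control 1 at 0.085, so a pairing of replicates 1 and 2 is not shown. Alternatives covered pseudocount, filter, scaling, variance model, replicate block and left-out libraries. None of Zm00001d001838, Wri1 or DGAT1-2 had a gene with identical values (0 each), whereas Lec1 shared its values with 14 other genes.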

Additional observations from a re-analysis of the deposited data

How the results depend on the processing

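Zm00001d001838, Wri1 and DGAT1-2 kept their direction in all 19 alternatives run. Only the changes of scaling could have reversed it. The groups did not overlap, and the other alternatives keep the order of the libraries. DGAT1-2 also kept its call in each of them. Zm00001d001838 missed the threshold as reported and passed in 5 alternatives: median-ratio rescaling (log2 fold change 0.53), quantile normalization (0.55), scaling to the FPKM outside the 20 most abundant genes (0.55), the replicate block (0.41, limma adjusted p = 0.0478) and without control 2 (0.52). Leaving out single libraries gave 0.30 to 0.52 for it. Wri1 lost its call in 10: with the same 3 rescalings (-0.15, -0.14 and -0.13), which move the median gene from -0.13 to about 0 (-0.00037, 0.013 and 0.016), without the variance trend (-0.29), without replicate 3 of both groups (-0.29) and without 5 of the 6 single libraries (-0.35 to -0.23 over all 6). The replicate block did not change the call of Wri1 or DGAT1-2. It gave 3 called members, against 2 as reported, 1 without the variance trend, 1 without replicate 3 of both groups and 1 to 2 without single libraries. The 3 rescalings also gave 2, but these were DGAT1-2, lower, and Zm00001d001838, higher. Calls over all 20514 tested genes moved as well: 4469 with the block, 3907 as reported, 3372 without the variance trend and 2889 without replicate 3 of both groups.

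Over all genes, 3907 were called (591 higher, 3316 lower), 2331 to 3316 without single libraries, where each fit holds fewer samples, and 4469 with the block (716 higher, 3753 lower). The split was 1279 higher and 1518 lower after median-ratio rescaling. Quantile normalization gave 1369 higher and 1440 lower, and scaling outside the 20 abundant genes gave 1405 higher and 1398 lower. The 3 ratios between members kept their direction when any single library was left out. This was fixed for each ratio, since its values did not overlap between the groups. Lec1 was fitted only without the filter (limma, adjusted p = 0.703), and no fold change is given against a group at 0.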
